A study of Homo sapiens with 9 samples.

Results

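Messenger RNA levels of 37 genes of homologous recombination and DNA damage repair were compared in 9 RNA sequencing libraries of the human leukaemia cell line MV4;11, which was derived from acute myeloid leukaemia. The genes were taken by symbol from a table of 26485 gene symbols, all 37 were in it, and all 37 were among the 12845 genes that passed the filter on low counts. The libraries came from parental cells, from MYC K148Q mutant and from MYC K148R mutant cells, 3 of each, and all cells were untreated and grown in RPMI. MYC is the transcription factor of growth and proliferation, and the substituted residue is a lysine. Glutamine is often used to mimic acetylated lysine, while arginine keeps the charge but takes no acetyl group. The sources used here give neither the way the mutants were made nor whether each line is a single clone. Whether a group's libraries are separate cultures is not stated either, so p-values measure the spread between these libraries, which may be technical.

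Homologous recombination repairs a broken chromosome by copying the intact sister, and it works mainly after DNA has been replicated. Broken ends are first cut back to single strands, BRCA1, PALB2 and BRCA2 then load a recombinase onto them, and helicases take the joined molecules apart. The Fanconi pathway handles crosslinks between the strands and hands the breaks on to recombination, and the kinases ATM and ATR report damage to the checkpoint kinases CHEK2 and CHEK1. Non-homologous end joining religates ends at any time in the cell cycle, and PARP1 and XRCC1 serve breaks of a single strand.

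Total counts were 13747087 to 18938391 per library. Values are CPM, counts scaled to a common library size, and changes are log2 fold changes with their standard error (SE) from one edgeR model of all libraries. A gene is called changed at a Benjamini-Hochberg adjusted p under 0.05 over all genes tested. Between-group differences were widespread in these cells, so the main counts are given beside the share of all tested genes that was called. K148Q replicate 3 deviated from K148Q replicates 1 and 2 along the GC content of transcripts. The Spearman correlation was -0.73 across 12140 genes and -0.89 across the 37 repair genes, both given as descriptions. No other library was set against GC content in this way. Deviations of K148R replicate 3 had their highest correlation with those of K148Q replicate 3, at 0.27. Other features also moved with the groups. The summed level of 12 myeloid markers was 1620 to 1630 CPM in parental, 2610 to 2710 in K148Q and 3530 to 3590 in K148R libraries. LYZ alone had means of 161, 491 and 1649 CPM in these groups. Of the 11 tested, 9 were higher and 2, FLT3 and MPO, lower in K148R against parental cells. Of markers of other cells, 7 T and NK cell markers summed to under 1 CPM in every library, with CD3E and KLRD1 at 0. The sum of 6 erythroid and megakaryocyte markers was 7.63 to 8.80 CPM in parental, 0.434 to 1.03 in K148Q and 16.9 to 20.6 in K148R libraries, with PF4 at 0 in all. The sum of 5 B cell markers was 3.28 to 5, 3.35 to 6 and 6.50 to 7.32 CPM in the same order, with MS4A1 at 0, and that of 6 epithelial and fibroblast markers 0 to 1.99, 0 to 0.062 and 3.27 to 5.82 CPM, with EPCAM at 0. In K148R against parental cells 1 of the 2 tested erythroid and megakaryocyte markers was higher and 1 lower. Of 4 tested B cell markers 2 were higher and 2 lower, and the 2 tested epithelial and fibroblast markers were higher. Over all tested genes 37.8% were higher and 37.3% lower. The small nuclear RNA RN7SK was at 4.17 to 15.98 CPM in parental, 3.72 to 7.43 in K148Q and 435 to 523 in K148R libraries. The part of these differences in the results below was not tested. In bulk RNA, fewer cells of a type and less RNA per cell cannot be told apart.

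The question of the first comparison was how the repair genes differed in K148R against parental cells. Of the 37 genes 35 fell, RAD52 rose and LIG4 did not pass the test. Over all tested genes 75.1% were called, 37.3% lower and 37.8% higher. A fall of at least 2-fold was found for 24 of the 37 genes, against 14.8% of all tested genes, and of at least 4-fold for 18, against 5.99%. The median log2 fold change was -1.90 for the 37 genes and -0.00 for all tested genes. In 35 of the 37 genes every K148R library lay below every parental library, a pattern found in 40.2% of all tested genes, and for RAD52 every one lay above, as in 40.4%. Summed over the 37 genes, the level was 6100, 5896 and 6021 CPM in the parental libraries, 5489, 5439 and 5570 in K148Q and 2657, 2702 and 2700 in K148R.

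**Figure D1:**
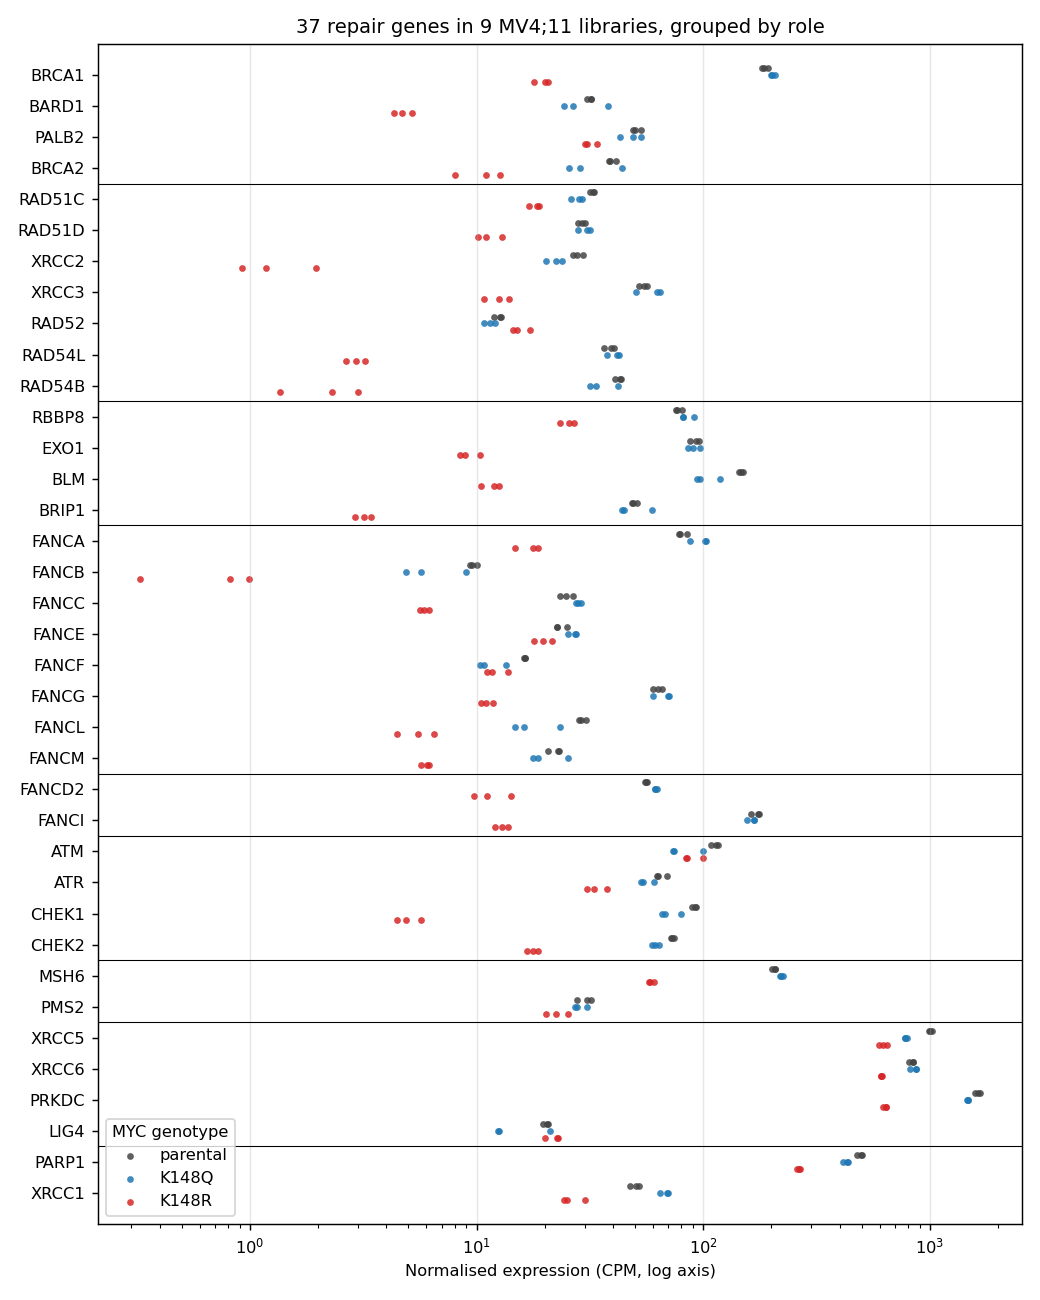
Normalised expression (CPM, log axis) of the 37 repair genes in each of the 9 libraries, one point per library, coloured by MYC genotype and grouped by role. The K148R points lie below the parental points for 35 genes and above them for RAD52, and they overlap them for LIG4. The distance is small for XRCC5 and XRCC6 and large for the helicases.

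The 4 genes of the BRCA1-BRCA2 axis all fell in K148R cells, with a median log2 fold change of -2.32. BRCA1 (chromosome 17, 43044295 to 43170245, minus strand, GRCh38), the ubiquitin ligase that directs a break to recombination, stood at 193, 185 and 182 CPM in the parental libraries, 201, 199.6 and 207 in K148Q and 17.96, 20.7 and 20.1 in K148R. All K148R libraries lay far below the other 6, and K148Q libraries slightly above the parental ones. The change in K148R was a log2 fold change of -3.26 (SE 0.067, adjusted p = 1.3e-14), a level 9.55-fold lower. BARD1, the obligate partner of BRCA1, was at 32.0, 32.0 and 30.6 CPM in parental libraries, 26.6, 24.3 and 38.1 in K148Q and 4.30, 4.68 and 5.20 in K148R libraries. Its K148R libraries stood apart from all others, while the K148Q libraries lay on both sides of the parental ones. BARD1 fell by 2.74 on the log2 scale (SE 0.16). BRCA2, which loads the recombinase onto single strands, read 38.4, 41.4 and 38.8 CPM in parental libraries, 28.6, 25.5 and 43.6 in K148Q and 11.1, 8.06 and 12.6 in K148R libraries, a fall by 1.89 (SE 0.20). PALB2, the bridge between BRCA1 and BRCA2, went from 50.7 ± 2.25 to 31.6 ± 2.03 CPM (SD, n = 3), a fall by only 0.68 (SE 0.089, adjusted p = 5.6e-06). PALB2 had the smallest fall of the 4 in point estimate, and the 2 groups of libraries did not overlap for any of them.

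Among the 7 recombinase paralogues and the annealing and remodelling factors, 6 fell and RAD52 rose. XRCC2 (chromosome 7, 152644779 to 152676165, minus strand), a paralogue that stabilises the recombinase filament, had the largest fall of the 37. It was at 29.4, 27.8 and 26.7 CPM in parental libraries, 22.4, 20.2 and 23.9 in K148Q and 0.93, 1.96 and 1.18 in K148R libraries, the last from 17, 29 and 19 reads. The fall was 4.39 on the log2 scale (SE 0.17, adjusted p = 7.8e-12), a level 21-fold lower. RAD54B and RAD54L, DNA translocases that help the filament search for its partner strand, fell by 4.23 (SE 0.18) and 3.71 (SE 0.11). RAD54B went from 42.9, 43.5 and 40.7 CPM in parental to 2.99, 2.30 and 1.36 in K148R libraries, with 31.6, 33.5 and 42.2 in K148Q. RAD54L went from 39.1, 36.4 and 40.5 to 2.94, 2.64 and 3.22 CPM, with 42.5, 41.7 and 37.7 in K148Q. Both translocases were thus more than 10-fold lower in every K148R library than in any parental library.

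The other paralogues fell less. XRCC3 was at 54.3 ± 2.18 CPM in parental and 12.4 ± 1.53 in K148R cells (SD, n = 3), RAD51D at 29.2 ± 1.04 and 11.3 ± 1.46, and RAD51C at 32.4 ± 0.664 and 18.1 ± 0.939. These are falls by 2.14 (SE 0.11), 1.36 (SE 0.10) and 0.84 (SE 0.083). The sources used here do not state the strand of counting, and 76.7% of the annotated exon bases of XRCC3 overlap KLC1 on the other strand, so reads of these genes cannot be told apart there. The same holds for 25.1% of RAD54L with LRRC41. RAD52 (chromosome 12, 912077 to 990053, minus strand), which anneals complementary single strands, was the one gene that rose, with 12.7, 11.9 and 12.8 CPM in parental libraries, 10.8, 11.5 and 12.0 in K148Q and 17.2, 15.1 and 14.4 in K148R libraries. The K148R libraries were the 3 highest of the 9. The log2 fold change was 0.32 (SE 0.10, adjusted p = 0.011), and the call was lost without K148R replicate 1 (0.24, adjusted p = 0.062) and with a correction for GC content (0.20, adjusted p = 0.064).

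End resection and the helicases gave the most negative median of any role with 4 or more genes, at -3.49, and all 4 genes fell. BRIP1, the helicase that binds BRCA1, was at 49.2, 48.3 and 50.9 CPM in parental libraries, 44.7, 43.7 and 59.2 in K148Q and 3.43, 3.18 and 2.91 in K148R libraries. BLM, the helicase mutated in Bloom syndrome, read 147, 144 and 150.4 CPM in parental libraries, 96.7, 93.4 and 119 in K148Q and 12.0, 10.5 and 12.5 in K148R libraries. EXO1, the exonuclease of long-range resection, was at 95.5, 87.1 and 92.8 CPM in parental libraries, 86.0, 89.8 and 96.3 in K148Q and 8.87, 10.4 and 8.42 in K148R libraries. For all 3 the K148R libraries were the lowest by a wide margin, and for BLM the K148Q libraries lay between the other groups. The falls in K148R were 3.96 (SE 0.14) for BRIP1, 3.65 (SE 0.10) for BLM and 3.32 (SE 0.089) for EXO1. RBBP8, the CtIP protein that starts resection, fell by 1.62 (SE 0.076), from 77.5 ± 2.67 to 25.3 ± 1.74 CPM (SD, n = 3).

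All 8 genes of the Fanconi core complex and its anchor fell in K148R cells, with a median of -2.17 and a range from -3.79 to -0.25. FANCB, a core subunit, was at 9.35, 9.55 and 10.1 CPM in parental libraries, 5.67, 4.86 and 8.99 in K148Q and 0.33, 0.81 and 0.99 in K148R libraries, from 6, 12 and 16 reads in the last. It fell by 3.79 (SE 0.30), the widest error of the 37. FANCL, the ubiquitin ligase subunit, went from 28.2, 30.5 and 28.8 CPM to 4.46, 5.49 and 6.50, with 16.2, 14.8 and 23.4 in K148Q, and its 3 groups of libraries were fully separate. FANCG, FANCA, FANCC and FANCM, subunits and the DNA-binding anchor, fell by 2.50 (SE 0.091), 2.25 (SE 0.096), 2.08 (SE 0.098) and 1.90 (SE 0.14). FANCA shares 23.6% of its exon bases with ZNF276 and FANCL 18.7% with VRK2 on the other strand.

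FANCE and FANCF, subunits that link the core complex to its substrate and hold it together, stood apart from the other Fanconi genes. FANCE was at 22.6, 25.1 and 22.5 CPM in parental libraries, 27.1, 27.4 and 25.4 in K148Q and 17.9, 21.6 and 19.6 in K148R libraries. FANCF was at 16.3, 16.2 and 16.3 CPM in parental libraries, 10.8, 10.3 and 13.5 in K148Q and 11.7, 13.7 and 11.1 in K148R libraries. For FANCE the parental and K148R libraries were close together without overlap, and for FANCF the 2 mutants overlapped each other below the parental libraries. FANCE fell by 0.25 (SE 0.094, adjusted p = 0.024) and FANCF by 0.42 (SE 0.12, adjusted p = 0.0047). The FANCE call was lost without parental replicate 2 (-0.21, adjusted p = 0.096), without K148R replicate 1 (-0.19, adjusted p = 0.12) and without K148R replicate 3 (-0.25, adjusted p = 0.052). The substrate pair of the core complex, FANCD2 and FANCI, fell unequally, FANCI from 174, 162 and 175 to 12.9, 13.7 and 12.0 CPM and FANCD2 from 56.5, 55.6 and 56.1 to 11.2, 14.2 and 9.72 CPM. These are falls by 3.73 (SE 0.072) and 2.27 (SE 0.11).

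All 4 damage kinases fell, the checkpoint kinases by more in point estimate than the kinases above them. CHEK1 (chromosome 11, 125625136 to 125676255, plus strand), the checkpoint kinase under ATR, was at 89.1, 93.0 and 92.1 CPM in parental libraries, 67.9, 65.9 and 80.0 in K148Q and 4.90, 4.47 and 5.70 in K148R libraries. CHEK2, the checkpoint kinase under ATM, was at 72.3, 73.9 and 72.7 CPM in parental libraries, 61.1, 63.6 and 59.6 in K148Q and 18.7, 17.7 and 16.6 in K148R libraries. For both, the 3 groups were in the order parental, K148Q and K148R with no overlap. CHEK1 fell by 4.18 (SE 0.11, adjusted p = 8.3e-14), a level 18.1-fold lower, and CHEK2 by 2.05 (SE 0.072), 4.13-fold lower. ATR was at 63.3, 62.2 and 69.2 CPM in parental and 33.0, 30.8 and 37.6 in K148R libraries, a fall by 0.94 (SE 0.087). ATM was at 117, 108 and 114 CPM in parental libraries, 73.5, 74.4 and 99.9 in K148Q and 83.8, 85.2 and 100.2 in K148R libraries. Both mutants overlapped below the parental libraries for ATM. Its fall by 0.33 in K148R (SE 0.11, adjusted p = 0.014) was lost without K148R replicate 1 (adjusted p = 0.060), without K148R replicate 2 (adjusted p = 0.051) and with a GC correction, where the change was 0.01.

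Within the chosen set of repair genes, the mismatch repair, end joining and single-strand break genes showed smaller changes than most recombination genes. This order was not seen outside that set. There the median log2 fold change was -0.39 for 28 other recombination genes and -1.65 for 6 other mismatch repair genes. The 6 include the replication factors POLD1, LIG1 and PCNA, which fell by 2.51, 2.51 and 1.76. PMS1, MLH3 and MSH3 fell by 1.54, 1.12 and 0.40. For 9 other end joining genes it was -0.47, and for 17 other base excision and single-strand break genes -0.39. MSH6 recognises mispaired bases, and 16.2% of its exon bases overlap FBXO11 on the other strand. It fell by 1.80 (SE 0.053), from 206, 206 and 201 CPM in parental to 58.1, 57.3 and 60.6 in K148R libraries. PMS2, the endonuclease downstream of MSH6, fell by 0.41 (SE 0.099), and counts of PMS2 are uncertain because the genome holds near-identical copies. PRKDC, the catalytic subunit of the DNA-dependent protein kinase, fell from 1671, 1580 and 1626 to 640, 623 and 640 CPM. XRCC5 and XRCC6, the Ku proteins that cap broken ends, fell by 0.69 and 0.44 (SE 0.044 for both), while PRKDC fell by 1.36 (SE 0.041). LIG4 (chromosome 13, 108207439 to 108218368, minus strand), the ligase of end joining, was at 20.7, 20.5 and 19.7 CPM in parental libraries, 12.4, 12.5 and 21.1 in K148Q and 20.1, 22.7 and 22.8 in K148R libraries. Parental and K148R libraries overlapped for LIG4, whose log2 fold change was 0.10 (SE 0.16, adjusted p = 0.58). With the GC correction it was 0.56 (adjusted p = 2.1e-06). PARP1, the sensor of strand breaks, fell by 0.90 (SE 0.046) and XRCC1, the scaffold of single-strand repair, by 0.92 (SE 0.088).

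**Figure D2:**
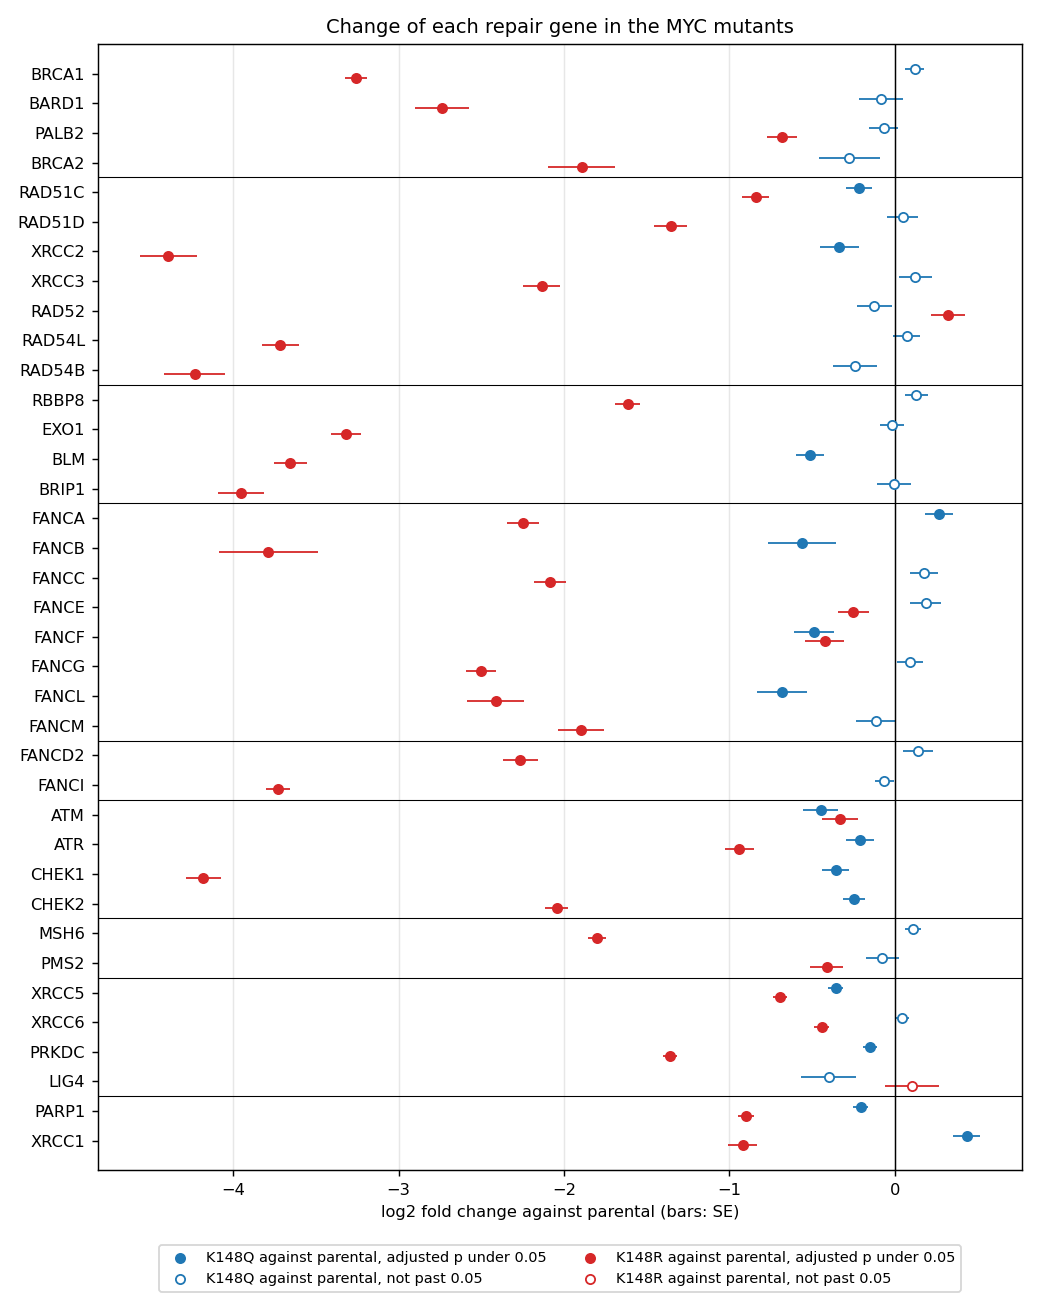
The log2 fold change of each of the 37 repair genes against parental cells, with bars for the SE, in K148Q (blue) and K148R cells (red), filled where the adjusted p was under 0.05. In K148R cells XRCC2, RAD54B and CHEK1 lie beyond -4 and RAD52 and LIG4 at 0.32 and 0.10, while the K148Q values lie between -0.68 and 0.43.

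By size, 10 of the 37 genes were more than 8-fold lower in K148R cells, namely BRCA1, XRCC2, RAD54L, RAD54B, EXO1, BLM, BRIP1, FANCB, FANCI and CHEK1. Another 8 were 4-fold to 8-fold lower, 6 were 2-fold to 4-fold lower and 11 were lower by less than 2-fold. Of all tested genes 14.8% were at least 2-fold and 5.99% at least 4-fold lower, and the share beyond 8-fold was not counted. The order of the levels per kilobase of exon changed accordingly. In parental cells the highest were XRCC6 at 252, XRCC5 at 184, PRKDC at 105 and PARP1 at 68.6 CPM per kilobase, followed by EXO1, BLM, FANCI and BRCA1 between 20.3 and 22.2. In K148R cells the same 4 led, at 186, 114, 41.1 and 36.8 CPM per kilobase, but XRCC1 at 7.66, FANCE at 7.30 and PALB2 at 6.65 came next, and FANCB was lowest at 0.198. The end joining and single-strand break genes made up 67.2%, 66.7% and 67.0% of the summed CPM of the 37 genes in parental libraries, 66.1%, 66.5% and 64.3% in K148Q and 81.4%, 81.2% and 80.5% in K148R. The size of the change was weakly related to gene features across the 37 genes. Spearman correlations were 0.25 with GC content, -0.09 with exon length and -0.11 with the parental level per kilobase, given as descriptions. Over 12140 genes the correlation with GC content was 0.24. A correction for GC content moved single genes in both directions, such as BRCA2 from -1.89 to -1.43 and XRCC1 from -0.92 to -1.14.

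Within a library, the counts of partners in one complex or step, or of counterparts such as CHEK1 and CHEK2, were also compared. The count ratio of FANCD2 to FANCI was 0.324, 0.342 and 0.320 in the parental libraries, 0.376, 0.392 and 0.365 in K148Q and 0.865, 1.04 and 0.809 in K148R libraries. The ratio of CHEK1 to CHEK2 was 1.23, 1.26 and 1.27 in the parental libraries, 1.11, 1.04 and 1.34 in K148Q and 0.262, 0.253 and 0.343 in K148R libraries. For both pairs the K148R libraries lay outside the range of the other 6. RAD51D and XRCC2, which bind each other, had nearly equal counts in parental libraries, at ratios of 1.03, 1.05 and 1.05, while RAD51D had 14, 5.14 and 9.32 times the counts of XRCC2 in K148R libraries. For the Ku pair XRCC5 and XRCC6 both mutants lay below the parental range, with ratios of 1.21, 1.24 and 1.19 in the parental libraries, 0.892, 0.894 and 0.967 in K148Q and 0.977, 1.06 and 1.02 in K148R libraries. A ratio within a library does not depend on its scaling, and the differences between ratios were not tested.

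**Figure D3:**
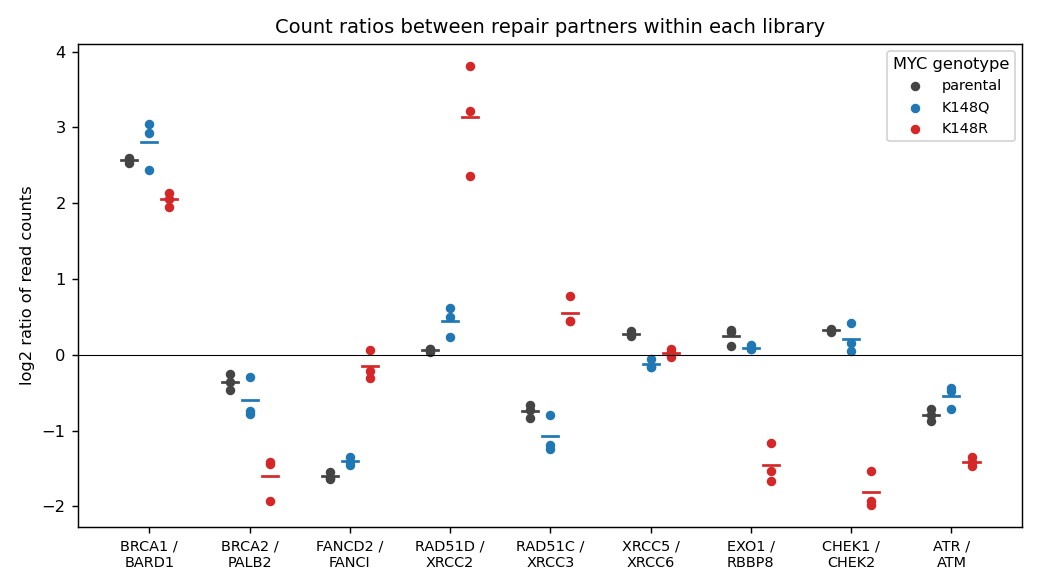
The log2 ratio of read counts between 9 pairs of repair partners or counterparts in each library (points) with the mean of each genotype (bars). The K148R points of FANCD2 to FANCI, RAD51D to XRCC2 and RAD51C to XRCC3 lie above both other groups, and those of BRCA1 to BARD1, BRCA2 to PALB2, EXO1 to RBBP8, CHEK1 to CHEK2 and ATR to ATM below them.

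Promoter sequence was read for 33 of the 37 genes from RefSeq (GRCh38.p14); FANCI, PRKDC, RAD54B and XRCC5 had no entry. The sequences shown are those of the 4 genes with the largest falls in K148R cells among genes that had an entry and a mean of at least 10 CPM in parental or K148R cells, a minimum that left out FANCB, and, for contrast, RAD52 and FANCE, which rose or fell least. Of the 4 contrast genes LIG4 and ATM are not shown, because 240 and 250 of their 250 bases before the start lie in annotated exons. Each stretch holds the bases in no annotated exon before 1 transcript start per gene, 5′ to 3′ on the gene's strand. Any other starts of a gene were not read, and for RAD52 and CHEK1 the stretch lies within the gene span given above. The motifs searched on both strands were the E2F motif (TTTCCCGC, TTTCGCGC, TTTGCCGC or TTTGGCGC), the E-box CACGTG bound by MYC with MAX, the CCAAT box and the CHR element TTTGAA, none of which contains another. Capitals mark matches, with ATTGG and TTCAAA as the other-strand spellings of CCAAT and TTTGAA.
XRCC2, chr7:152676166-152676391, minus strand: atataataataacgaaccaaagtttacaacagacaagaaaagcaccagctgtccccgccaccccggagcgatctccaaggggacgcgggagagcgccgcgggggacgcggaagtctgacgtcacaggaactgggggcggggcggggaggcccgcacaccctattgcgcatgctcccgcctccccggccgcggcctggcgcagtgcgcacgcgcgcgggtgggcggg
CHEK1, chr11:125626035-125626228, plus strand: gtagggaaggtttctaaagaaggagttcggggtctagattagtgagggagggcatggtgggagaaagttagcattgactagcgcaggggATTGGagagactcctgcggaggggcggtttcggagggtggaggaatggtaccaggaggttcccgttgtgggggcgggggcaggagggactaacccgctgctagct
BRIP1, chr17:61863529-61863778, minus strand: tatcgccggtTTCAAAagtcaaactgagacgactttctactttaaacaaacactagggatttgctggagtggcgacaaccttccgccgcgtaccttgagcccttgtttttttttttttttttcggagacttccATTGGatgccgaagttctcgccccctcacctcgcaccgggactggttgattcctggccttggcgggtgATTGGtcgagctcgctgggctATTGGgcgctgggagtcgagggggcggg
RAD54L, chr1:46247438-46247687, plus strand: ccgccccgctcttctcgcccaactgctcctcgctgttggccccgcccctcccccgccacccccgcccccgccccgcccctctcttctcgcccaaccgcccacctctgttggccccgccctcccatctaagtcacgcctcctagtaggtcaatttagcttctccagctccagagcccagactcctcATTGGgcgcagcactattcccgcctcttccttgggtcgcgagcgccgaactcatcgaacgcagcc
RAD52, chr12:949723-949944, minus strand: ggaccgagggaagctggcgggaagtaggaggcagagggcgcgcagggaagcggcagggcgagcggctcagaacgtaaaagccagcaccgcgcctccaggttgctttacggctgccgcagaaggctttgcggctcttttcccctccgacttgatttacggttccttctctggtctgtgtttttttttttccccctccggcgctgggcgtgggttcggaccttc
FANCE, chr6:35452088-35452337, plus strand: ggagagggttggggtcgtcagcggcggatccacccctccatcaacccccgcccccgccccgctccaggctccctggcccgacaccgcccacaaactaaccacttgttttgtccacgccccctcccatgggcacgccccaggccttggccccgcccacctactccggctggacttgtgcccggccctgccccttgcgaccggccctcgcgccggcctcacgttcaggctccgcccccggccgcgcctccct
The stretches of CHEK1, BRIP1 and RAD54L hold 1, 3 and 1 CCAAT boxes, BRIP1 also a CHR element, and those of XRCC2, RAD52 and FANCE none of the 4 motifs.

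In the window from 250 bases before to 50 bases after the start, the E2F motif was found in 8 of the 33 genes (24.2%), in 3.33% of all 27305 promoters of the table and in 5.54% of those of 9414 tested genes. In the 250 bases before the start alone it was in 3 of the 33 (9.09%), against 4.56% of tested genes, so most of the matches in the wider window depend on the 50 bases after the start. In the wider window it was in 5 of the 16 genes that were at least 4-fold lower in K148R cells and in 2 of the 12 that changed less than 2-fold, and in the 250 bases in 2 and 1 of these. CCAAT was in 15 of the 33 genes (45.5%, against 36.9% of tested genes), in 7 of the same 16 and in 6 of the same 12. The E-box was in 2 (6.06%, against 10.3%) and the CHR element in 4 (12.1%, against 9.68%). A match describes these letters only and is not a bound site. The E2F matches of the genes that were at least 4-fold lower are shown with 10 bases on either side and the match in capitals.
XRCC2, chr7:152676103-152676130, minus strand: ggcgttggtgGCGGGAAAgttgagtctc
EXO1, chr1:241848198-241848225, plus strand: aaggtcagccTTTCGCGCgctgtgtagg
FANCA, chr16:89816802-89816829, minus strand: ctacaccgcgGCGGCAAAgccaaacgca
FANCC, chr9:95317864-95317891, minus strand: cggggcttccGCGCGAAAccgggaacac
FANCC, chr9:95317738-95317765, minus strand: tcgtcggaatTTTCCCGCgacgccgcgg
FANCD2, chr3:10026425-10026452, plus strand: gtcgggcctgGCGGGAAAgtcgaaaact
The match lies 22 bases after the start in XRCC2, 5 after in EXO1, 172 before in FANCA, 172 and 46 before in FANCC and 2 before in FANCD2. The other 3 genes with a match were MSH6, PMS2 and XRCC6, whose log2 fold changes were -1.80, -0.41 and -0.44.

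In the second comparison, of K148Q with parental cells, the changes were small. FANCA and XRCC1 were called higher and 13 genes lower (RAD51C, XRCC2, BLM, FANCB, FANCF, FANCL, ATM, ATR, CHEK1, CHEK2, XRCC5, PRKDC and PARP1), while 22 did not pass. Over all tested genes 53.3% were called, 27% higher and 26.3% lower. None of the 37 genes reached 2-fold, against 4.71% of all tested genes higher and 6.68% lower by that size, and 2.71% were lower by 4-fold. The median log2 fold change was -0.08 for the 37 genes and -0.01 for all tested genes. In 13 of the 37 genes (35.1%) every K148Q library lay below every parental library, against 29.7% of all tested genes, and in 8 (21.6%) every one lay above, against 29.8%.

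By role, all 4 damage kinases fell in K148Q cells, with a median of -0.30, beside 26.3% of all tested genes called lower. With all libraries none of the 4 genes of the BRCA1-BRCA2 axis passed. Without K148Q replicate 3 BRCA1 (0.11, adjusted p = 0.034), BARD1 (-0.30, adjusted p = 0.0035) and BRCA2 (-0.54, adjusted p = 1.3e-05) passed. FANCL fell by 0.68 (SE 0.15, adjusted p = 0.0018), BLM by 0.51 (SE 0.084, adjusted p = 0.00013) and ATM by 0.45 (SE 0.11, adjusted p = 0.0037). CHEK1 fell by 0.36 (SE 0.081) and CHEK2 by 0.25 (SE 0.066), and the ATR call was marginal, at -0.21 (SE 0.084, adjusted p = 0.0496). XRCC5 was at 1018, 999 and 995 CPM in parental and 777, 778 and 794 in K148Q libraries, a fall by 0.36 (SE 0.044, adjusted p = 9.5e-06). Its partner XRCC6 was at 829 ± 19.96 CPM in parental and 854 ± 28.5 in K148Q cells (SD, n = 3) and did not pass (adjusted p = 0.44). XRCC1 was at 50.6, 47.7 and 52.3 CPM in parental and 69.5, 69.7 and 64.4 in K148Q libraries, a rise by 0.43 (SE 0.084, adjusted p = 0.00055), and it fell in K148R cells. FANCA rose by 0.27 (SE 0.085, adjusted p = 0.016), a call lost without parental replicate 1, parental replicate 3, K148Q replicate 1 or K148Q replicate 2 (0.23 to 0.25, adjusted p = 0.058 to 0.066). The calls of RAD51C, XRCC2, FANCB and ATR were each lost without parental replicate 1, 2 or 3 and without K148Q replicate 1 or 2, with adjusted p of 0.052 to 0.20 in these fits. That of ATR was also lost without K148R replicate 1 (adjusted p = 0.064). Both comparisons share the parental libraries, so the signs of a gene in the 2 mutants are not independent.

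GC content moved with these values. The K148Q log2 fold changes had a Spearman correlation with GC content of 0.61 over the 37 genes and 0.20 over 12140 genes, and without K148Q replicate 3 of 0.75 and 0.31. K148Q replicate 3 lay above the mean of K148Q replicates 1 and 2 by 0.76 (log2 CPM) for FANCB, 0.75 for LIG4, 0.69 for BRCA2, 0.60 for FANCL and 0.58 for BARD1, all with GC content of 35.7% to 40.7%. It lay below by -0.33 for XRCC3, at 61.1%. Without that library 8 of the 37 genes were higher and 18 lower. Calls over all tested genes also rose, from 6848 of 12845 to 8402 of 13082. BRCA2 moved from -0.28 to -0.54 (adjusted p = 1.3e-05) and LIG4 from -0.40 to -0.70 (adjusted p = 3.7e-07). With a correction for GC content, chosen after seeing the data, 8 were higher and 10 lower, and 7709 of all 12845 tested genes were called. BRCA2 was then at -0.05 (adjusted p = 0.62) and LIG4 at -0.18 (adjusted p = 0.083). That correction lost the calls of RAD51C, XRCC2 and ATR and gave BRCA1 a rise of 0.24 (adjusted p = 0.00011). FANCL stayed called at -0.52, BLM at -0.35, ATM at -0.28, CHEK1 at -0.22, XRCC5 at -0.25 and XRCC1 at 0.34.

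**Figure D4:**
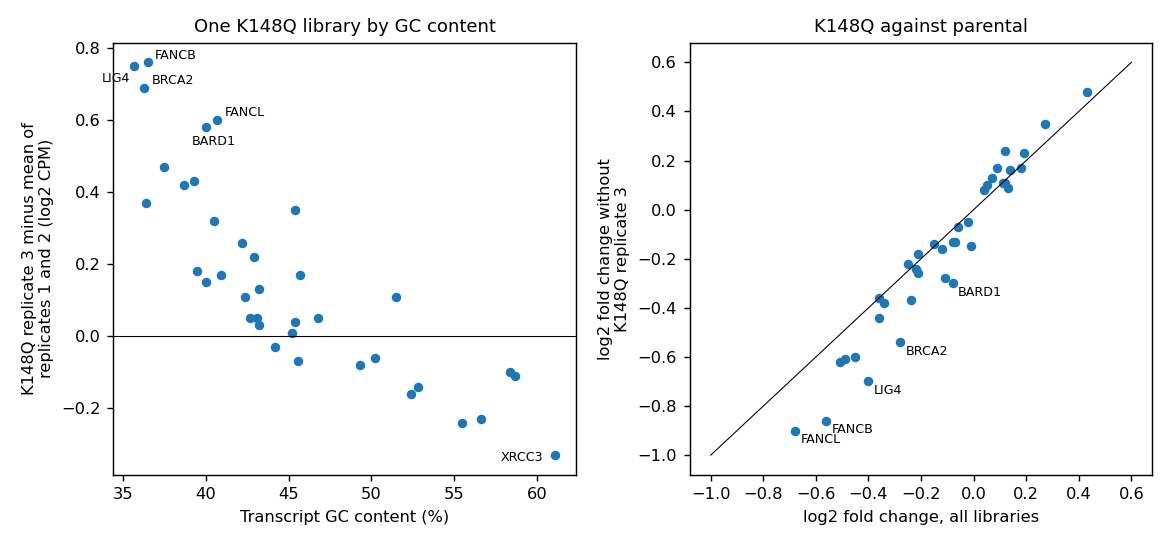
Left, the deviation of K148Q replicate 3 from the mean of K148Q replicates 1 and 2 (log2 CPM) against the GC content of transcripts (%) for the 37 repair genes, falling from 0.76 for FANCB to -0.33 for XRCC3. Right, the log2 fold change of K148Q against parental cells with all libraries and without that library, one point per gene, with the line of equal values and the names of the genes that moved most.

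Set directly against K148Q cells, K148R cells had 33 of the 37 genes lower and 2 higher, while ATM and FANCF did not pass. Over all tested genes 71% were called, 34.5% lower and 36.6% higher. At least 2-fold lower were 25 of the 37 genes, against 12.1% of all tested genes, at least 4-fold lower were 16, against 4.72%, and none was higher by 2-fold, against 13.8%. The median was -1.78 against 0.02 for all tested genes. BRCA1 was 10.4-fold, CHEK1 14.2-fold, BRIP1 15.4-fold and XRCC2 16.6-fold lower. The genes called higher were RAD52, by 0.45 (SE 0.10, adjusted p = 0.0014), and LIG4, by 0.51 (SE 0.17, adjusted p = 0.015), whose libraries overlapped because K148Q replicate 3 was at 21.1 CPM. The LIG4 call was lost without K148Q replicate 1 (0.37, adjusted p = 0.061), without K148Q replicate 2 (0.38, adjusted p = 0.059) and when the 2 groups were fitted alone (0.47, adjusted p = 0.061). Without K148Q replicate 3 it held, at 0.79. FANCF differed by 0.07 (SE 0.12, adjusted p = 0.63) and ATM by 0.12 (SE 0.11, adjusted p = 0.35), and without K148Q replicate 3 ATM was higher in K148R by 0.26 (adjusted p = 0.00037). XRCC1, higher in K148Q than in parental cells, was 2.55-fold lower in K148R than in K148Q cells.

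Other repair genes were read from lists drawn up alongside the 37, with 119 tested. In K148R against parental cells 81 of them (68.1%) were lower and 18 (15.1%) higher, against 37.3% and 37.8% of all tested genes, with a median of -0.56. At least 4-fold lower were 22 (18.5%), against 5.99%. Of 18 other genes of damage signalling 16 fell and none rose, with a median of -1.23. CLSPN, the adaptor of CHEK1, fell from 111 ± 5.63 to 7.86 ± 0.967 CPM. All 6 other mismatch repair genes fell, among them LIG1, the replicative ligase, from 231 ± 2.01 to 40.6 ± 0.918 CPM. Other Fanconi genes fell in 8 of 12 cases and rose in 2, UBE2T, the ubiquitin-conjugating enzyme for FANCD2, going from 86.9 ± 1.96 to 8.08 ± 0.563 CPM and the nuclease gene FAN1 from 25.0 ± 1.83 to 31.3 ± 1.53. Among 28 other recombination genes 17 (60.7%) fell and 5 rose, with a median of -0.39, and with POLQ, the polymerase of microhomology-mediated joining, at 56.3 ± 2.46 and 6.62 ± 0.542 CPM and TOP3A, the topoisomerase that works with BLM, at 60.0 ± 1.36 and 89.5 ± 3.76. All values are SD with n = 3.

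The remaining lists held both directions, and their shares are to be read against the same 37.3% lower and 37.8% higher of all tested genes. Nucleotide excision genes fell in 10 of 18 cases (55.6%) and rose in 5 (27.8%), with a median of -0.21, and the damage sensors XPC and DDB2 changed in opposite directions. XPC rose from 65.2 ± 1.66 to 130.2 ± 4.61 CPM and DDB2 fell from 84.1 ± 2.23 to 41.6 ± 1.02 (SD, n = 3). Base excision genes fell in 12 of 17 cases (70.6%) and rose in 3 (17.6%), with a median of -0.39, and the glycosylase genes UNG and MPG moved in opposite directions, UNG from 175 ± 4.198 to 10.7 ± 0.934 CPM and MPG from 74.0 ± 2.30 to 125 ± 7.82. Translesion genes fell in 6 of 11 cases (54.5%) and rose in 1, with HLTF lower by 2.44 (SE 0.11) and REV3L higher by 0.29 (SE 0.090). The other end joining genes fell in 6 of 9 cases (66.7%) and rose in 2, with C9orf142 (PAXX) lower by 1.51 (SE 0.10) and NHEJ1 higher by 0.32 (SE 0.091). Beside these, all 16 genes of the replicative helicase and its loading, which act as cells enter S phase, were at least 4-fold lower, with a median of -3.07, and MCM4 fell from 1210 ± 6.79 to 146 ± 2.96 CPM. The part of a difference in cell-cycle distribution in the repair results was not tested.

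**Figure D5:**
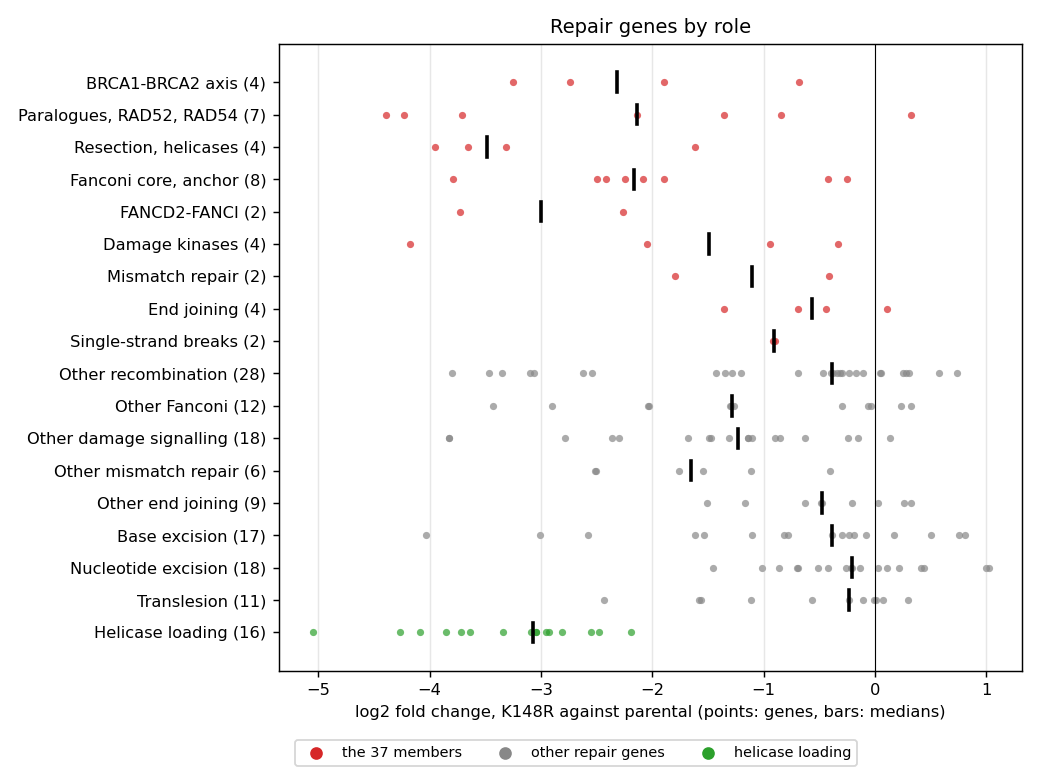
The log2 fold change in K148R against parental cells of the 37 repair genes (red), other repair genes (grey) and the replicative helicase and its loading factors (green), one point per tested gene with the number of genes in parentheses and black bars at the medians. Medians lie at -3.49 for the resection and helicase members, -2.32 for the BRCA1-BRCA2 axis, -0.57 for the end joining members, -0.21 for nucleotide excision and -3.07 for helicase loading.

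In K148Q against parental cells 20 of the other 119 repair genes (16.8%) were higher and 38 (31.9%) lower, against 27% and 26.3% of all tested genes, with a median of -0.09. The member with the smallest p in each direction was, for recombination, MUS81 at 0.42 (SE 0.084) and RPA3 at -0.54 (SE 0.079), a junction nuclease and a subunit of the single-strand binding complex. For damage signalling these were TIMELESS at 0.33 (SE 0.063) and TP53BP1, the 53BP1 protein that favours end joining, at -0.47 (SE 0.074). For base excision OGG1, the glycosylase of oxidised guanine, rose by 0.79 (SE 0.11) and POLB, the gap-filling polymerase, fell by 0.93 (SE 0.090). Helicase loading genes fell in 5 of 16 cases and rose in 2 in K148Q cells, with a median of -0.06.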

How the data were processed

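RNA sequencing of 9 MV4;11 libraries, 3 per MYC genotype, was analysed, grouped by the genotype in the labels. The authors deposited raw read counts per gene symbol, with no scaling. The submitters' processing notes list HISAT2 2.0.5, featureCounts 1.5.2 and FastQC 0.11.7 with the build GRCh38, and the sources used here give no options, strand or annotation. Members and lists were chosen with earlier results of these data known. The 37 members and the other mismatch repair genes are all named, and of the remaining lists the called gene with the smallest p in each direction.

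Genes were filtered with filterByExpr, scaled with TMM and tested with edgeR 4.0.16 (R 4.3.3) by the robust quasi-likelihood F test, with 1 term per genotype over all 9 libraries and 6 residual degrees of freedom. P-values were Benjamini-Hochberg adjusted over 12845 genes. The SE is the log2 fold change over the root of F. The common biological coefficient of variation was 0.074. The procedure was tested on simulated data. An exact permutation test of 3 against 3 libraries cannot go below p = 0.1. Alternatives used DESeq2 1.42.0, limma-voom 3.58.1, other scalings and filters, a 1.5-fold threshold test, a replicate block, each library left out and, added after seeing the data, offsets from 20 bins of GC content. Positions, exon lengths and GC content came from GENCODE 29, with 7 older symbols matched by hand, and promoters from RefSeq GRCh38.p14. Depth was 13747087 to 18938391 counts per library.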

Additional observations from a re-analysis of the deposited data

How the results depend on the processing

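In K148R against parental cells the 35 falls held with DESeq2, limma-voom, the other scalings and filters, a fit of the 2 groups alone and the replicate block. Leaving out each library gave 33 to 35 lower, 0 to 1 higher (RAD52 was lost without K148R replicate 1) and medians of -2 to -1.87. A test against 1.5-fold (edgeR's glmTreat) gave 0 higher and 29 lower, and the GC correction moved the median to -1.68 and ATM to 0.01. For K148Q against parental cells, leaving out each library gave 1 to 8 higher, 9 to 18 lower and medians of -0.15 to -0.04. The most calls came without K148Q replicate 3, where those over all tested genes also rose, from 6848 of 12845 to 8402 of 13082. The test against 1.5-fold gave 0 higher and 0 lower, with or without adjustment, and the GC correction 8 higher. The ATR call was also lost with RLE scaling, with DESeq2 and with the 2 groups alone. That of RAD51C was lost with DESeq2, without a filter and with the 2 groups alone, and that of FANCB with the 2 groups alone. LIG4 was called lower with upper quartile scaling, DESeq2 and limma-voom.

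Small K148Q values changed sign. BRIP1, at -0.01, was 0.00065 with RLE scaling, 0.00040 with DESeq2, 0.01 with the 2 groups alone and 0.01, 0.06 and 0.07 without parental replicate 3, K148Q replicate 1 and K148Q replicate 2. XRCC6 was -0.0015 with upper quartile scaling. EXO1 was 0.01 without parental replicate 1 and 0.02 without K148Q replicate 1, and BARD1 and PALB2 0.04 and 0.01 without K148Q replicate 2, against -0.30 and -0.13 without K148Q replicate 3. With the GC correction BARD1 was 0.08, PALB2 0.04, RAD51D -0.05, RAD54L -0.03, EXO1 0.09, BRIP1 0.18, FANCG -0.03, FANCM 0.11 and FANCI 0.05. The cause was not tested.

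In K148R against K148Q cells, leaving out each library gave 33 to 33 lower, 1 to 3 higher and medians of -1.85 to -1.71. The GC correction gave a median of -1.60, the 2 groups alone 1 higher and the test against 1.5-fold 0 higher, and FANCF was -0.01 and -0.02 without K148Q replicate 2 and without K148R replicate 2. Correlations of deviations were -0.02 to 0.27 over 9 same-numbered pairs of libraries and -0.24 to 0.17 over 18 unlike-numbered pairs. In 9 of 18 cases the correlation was highest with the own number. Whether replicate numbers mark pairs is not stated and was not tested. Over all tested genes, a replicate block raised the calls from 9126 to 9410 here. In K148Q and K148R against parental cells they went from 6848 to 7262 and from 9649 to 9821. With the replicate block 2 repair genes were higher and 14 lower in K148Q against parental cells, LIG4 being the addition, and no call changed in the other comparisons. Depth limited XRCC2 and FANCB most, with 6 to 29 reads per K148R library.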
